A study of Mus musculus with 20 samples.

Results

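Fat cell transcripts were followed in RNA from macrophages sorted out of adipose tissue and spleen. The members were chosen by symbol: Adipoq, Cfd, Cidec, Plin1, Plin4, Lep, Retn, Car3, Lipe and Pparg, which are 10 of the 14191 genes in the 3 deposited tables. All 10 were listed in the table of visceral adipose tissue (VAT) libraries and in the table of wild-type libraries, and 4 of 10 (Retn, Car3, Lipe and Pparg) in the table of spleen libraries. The first 8 are called adipocyte genes below, and Lipe and Pparg are kept apart as genes that macrophages also express. Among the 8, Retn also had reads in every spleen library, at levels that overlapped with VAT, so the name fits it less well.

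Poly-A RNA was sequenced from cells of male mice that were sorted for F4/80 and CD11b, which mark macrophages (CD11b is also carried by neutrophils and monocytes). In VAT, 3 libraries came from wild-type mice at 3 months of age, 4 from wild-type mice at 24 months and 4 from mice without Nlrp3 (Nlrp3-/-) at 24 months. In spleen, those groups held 2, 4 and 3 libraries. Nlrp3 encodes the sensor of an inflammasome, a complex that activates interleukin-1β, and there was no young Nlrp3-/- group. The labels used here give neither strain nor which libraries are separate animals, so p-values measure only the spread between these libraries, which may be technical.

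Adipocytes store triglyceride in one large droplet and secrete hormones. The nuclear receptor PPARγ pairs with RXR and, with C/EBP factors, drives their formation, and many genes of the mature cell are its targets. Macrophages of adipose tissue lie against adipocytes, take up lipid, clear dead adipocytes and use PPARγ and several lipid genes themselves. In RNA from a sorted population, fewer cells of a type and less RNA per cell cannot be told apart.

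Depth was 24082377 to 37471477 recovered reads per library and table. Nlrp3 was at 2708 to 4254 normalised counts in the 7 wild-type VAT libraries, and at 10.001, 10.5, 6.15 and 200.4 in the Nlrp3-/- VAT libraries, where the last held more than the others. In the Nlrp3-/- spleen libraries it was at 1, 3.61 and 1. Adgre1, which encodes F4/80, was at 17903 to 45465 in wild-type VAT and 5498 to 9360.2 in wild-type spleen, and Itgam, which encodes CD11b, at 7574 to 14267 and 3647 to 9399.5. All 12 macrophage markers were higher in VAT than in spleen at 24 months, as were 26.6% of all genes. In the wild-type libraries the summed level of 8 neutrophil markers was 163175 to 762615 in spleen against 616 to 7832 in VAT, and that of 10 B cell markers was 83896 to 156242 against 663 to 10079.

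In mm10 with the GENCODE M21 annotation, the genes of the members span chr16:23146536-23158028 (Adipoq), chr10:79890853-79892655 (Cfd), chr6:113424634-113435760 (Cidec), chr7:79720218-79732903 (Plin1), chr17:56100591-56109803 (Plin4), chr6:29060220-29073877 (Lep), chr8:3655770-3660110 (Retn), chr3:14863512-14872523 (Car3), chr7:25379527-25398710 (Lipe) and chr6:115360951-115490399 (Pparg). Sequence upstream of the members was taken from RefSeq (build GRCm38.p6), which matched 9 of 10 members with 13 start sites. Windows of 250 bases before 4 of these starts are printed, chosen after the matches were seen. Lep and Cidec show adipocyte genes with a match to TTGCNNAA, a core of the C/EBP motif searched on both strands, and Adipoq shows one without. The printed Cidec window lies inside the gene model, and the window of its other start, at the outer end, had no match. Pparg is the member both cell types use, and its printed start, inside the longer gene model, is the one known for the fat cell isoform. Capitals mark each match, and sequences run 5′ to 3′ on the gene's strand.
Lep, chr6:29059971-29060220, plus strand: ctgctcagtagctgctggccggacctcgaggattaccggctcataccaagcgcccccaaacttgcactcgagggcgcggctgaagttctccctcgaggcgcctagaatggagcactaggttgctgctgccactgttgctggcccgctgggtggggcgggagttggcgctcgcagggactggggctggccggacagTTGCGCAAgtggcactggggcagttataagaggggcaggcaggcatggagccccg
Cidec, chr6:113434765-113435014, minus strand: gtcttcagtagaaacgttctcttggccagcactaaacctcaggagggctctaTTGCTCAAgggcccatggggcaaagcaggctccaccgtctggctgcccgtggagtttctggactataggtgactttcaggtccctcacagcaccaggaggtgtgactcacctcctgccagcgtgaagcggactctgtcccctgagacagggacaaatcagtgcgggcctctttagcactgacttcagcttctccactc
Adipoq, chr16:23146286-23146535, plus strand: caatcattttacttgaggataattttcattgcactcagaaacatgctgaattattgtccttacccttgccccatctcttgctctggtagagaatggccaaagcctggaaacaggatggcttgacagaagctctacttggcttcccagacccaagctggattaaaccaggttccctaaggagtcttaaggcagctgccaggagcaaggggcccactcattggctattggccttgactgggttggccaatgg
Pparg, chr6:115421816-115422065, plus strand: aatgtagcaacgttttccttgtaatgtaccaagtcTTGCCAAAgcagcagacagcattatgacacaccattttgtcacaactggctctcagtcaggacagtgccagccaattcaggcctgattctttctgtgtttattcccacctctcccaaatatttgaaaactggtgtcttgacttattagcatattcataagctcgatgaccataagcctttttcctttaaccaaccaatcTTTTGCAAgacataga

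The match began 55 bases before the start in Lep, 198 in Cidec, and 215 and 16 in Pparg. TTGCNNAA was in 4 of 13 member windows, the fourth being that of Plin1, and in 9.56% of 32851 windows of the same length. The repeat bound by PPAR with RXR, AGGTCANAGGTCA, was in 0 of 13 member windows and in 0.0335% of all. Its single unit AGGTCA was in 2 of 13 and in 14.02%. In all, 10 patterns were searched on both strands, some of which contain others. The wider TTNCNNAA was in 6 of 13 and 36.8%, the narrower TTGCGNAA in 1 and 0.670%, and the looser repeat AGGNCANAGGNCA in 0 and 0.338%. TATAAA was in 1 and 12.4%, TATAAAA in 1 and 4.98%, the E box CACGTG in 1 and 6.02%, and the palindromic EBF motif in 1 and 0.779%. The tables give 1 value per gene, so the starts of Pparg were not measured separately.

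The wild-type table, which holds both tissues on 1 scale, was used to ask which members differed between VAT and spleen. Car3, Cfd, Cidec, Adipoq, Lep, Plin4 and Plin1 were higher in VAT at 24 months, which is 7 of 8 adipocyte genes, and all of these but Plin1 were higher at 3 months. Across all genes, 26.6% were called higher in VAT at 24 months and 23.2% at 3 months (limma on log2 of the value plus 1, Benjamini-Hochberg adjusted p under 0.05 over 13702 genes). Members with few or no spleen reads passed the filter on low values mainly or only through VAT. These counts are therefore a description, and no limma p-value is given for such a member. A normalised count is the number of reads divided by the library's size factor, and entries below 1 were deposited as 1, read here as 0 reads. A count of 0 allows up to 3 reads, or 2.33 to 3.85 normalised counts, and this covers counting error only.

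Car3 encodes a carbonic anhydrase abundant in the adipocyte cytosol. In VAT it was at 11697, 6960.0 and 7704 at 3 months and 7440.5, 4401, 4585 and 1709.7 at 24 months, and in spleen at 60.01 and 1 at 3 months and 28.4, 1, 1 and 1 at 24 months. The spleen reads lay in 1 library of each age, and every VAT library was above every spleen library. Car3 had no reads in most spleen libraries, so its spleen log2 level rests largely on values of 1 and no limma p-value is given. The log2 difference was 9.60 (SE 1.24, limma) at 3 months and 9.998 (SE 0.96) at 24 months. The 3-month value rests on 2 spleen libraries: it was 7.13 without young spleen replicate 2 and 12.06 without replicate 1.

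Cfd encodes adipsin, a complement protease secreted by adipocytes. It was at 1 in all 6 spleen libraries, and in VAT at 1735, 1332 and 1402 at 3 months and 1002, 572, 951 and 74.1 at 24 months. Against the mean level of 3 reads per spleen library, its VAT mean was at least 523-fold higher at 3 months and at least 249-fold higher at 24 months. Cidec encodes a protein that enlarges lipid droplets by fusing them. It was likewise at 1 in all 6 spleen libraries, and in VAT at 742, 401 and 313 at 3 months and 389, 360.3, 449 and 172 at 24 months, at least 170.5-fold and 131-fold higher.

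Adipoq encodes adiponectin, an abundant hormone of fat cells. In VAT it was at 442, 213 and 285 at 3 months and 262, 105, 275 and 108 at 24 months, and in spleen at 1 and 27.3 at 3 months and 1, 16.9, 1 and 1 at 24 months. The tissues did not overlap, and as with Car3 the spleen reads lay in 1 library of each age. Adipoq had few spleen reads and passed the filter on low values through VAT alone, so no limma p-value is given. The log2 difference was 5.32 (SE 1.13, limma) at 3 months and 5.62 (SE 0.87) at 24 months. At 3 months it was 3.41 without young spleen replicate 1 and 7.23 without replicate 2. With DESeq2 on the recovered reads the adjusted p at 3 months was 0.0693, not past the threshold.

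Lep encodes leptin, the hormone by which fat signals satiety. In VAT it was at 146, 64.5 and 69.3 at 3 months and 28.4, 118, 67.3 and 164 at 24 months, and in spleen at 1 except for 2.33 in a 24-month library. Every VAT library was above every spleen library, and at 3 months the VAT mean was at least 32.8-fold higher than 3 reads per spleen library.

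Plin1 and Plin4 encode perilipins, which coat lipid droplets, and Plin1 controls access of lipases to the adipocyte droplet. Plin1 was at 23.6, 2.89 and 7.70 in VAT at 3 months and 6.83, 13.3, 59.98 and 12.3 at 24 months, and at 1 in all 6 spleen libraries. Its VAT mean was at least 4.01-fold higher than 3 reads per spleen library at 3 months and at least 8.85-fold higher at 24 months. Whether Plin1 was called moved with the method: limma called it at 24 months but not under quantile normalisation, and at 3 months DESeq2 called it and limma did not. Plin4 was at 20.5 to 55.9 and 12.3 to 77.9 in VAT at the 2 ages, and at 1 in spleen except for 5.09 in a 24-month library. Every VAT library was above every spleen library for Plin4, and at 3 months its VAT mean was at least 11.8-fold higher than 3 reads per spleen library.

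**Figure D1:**
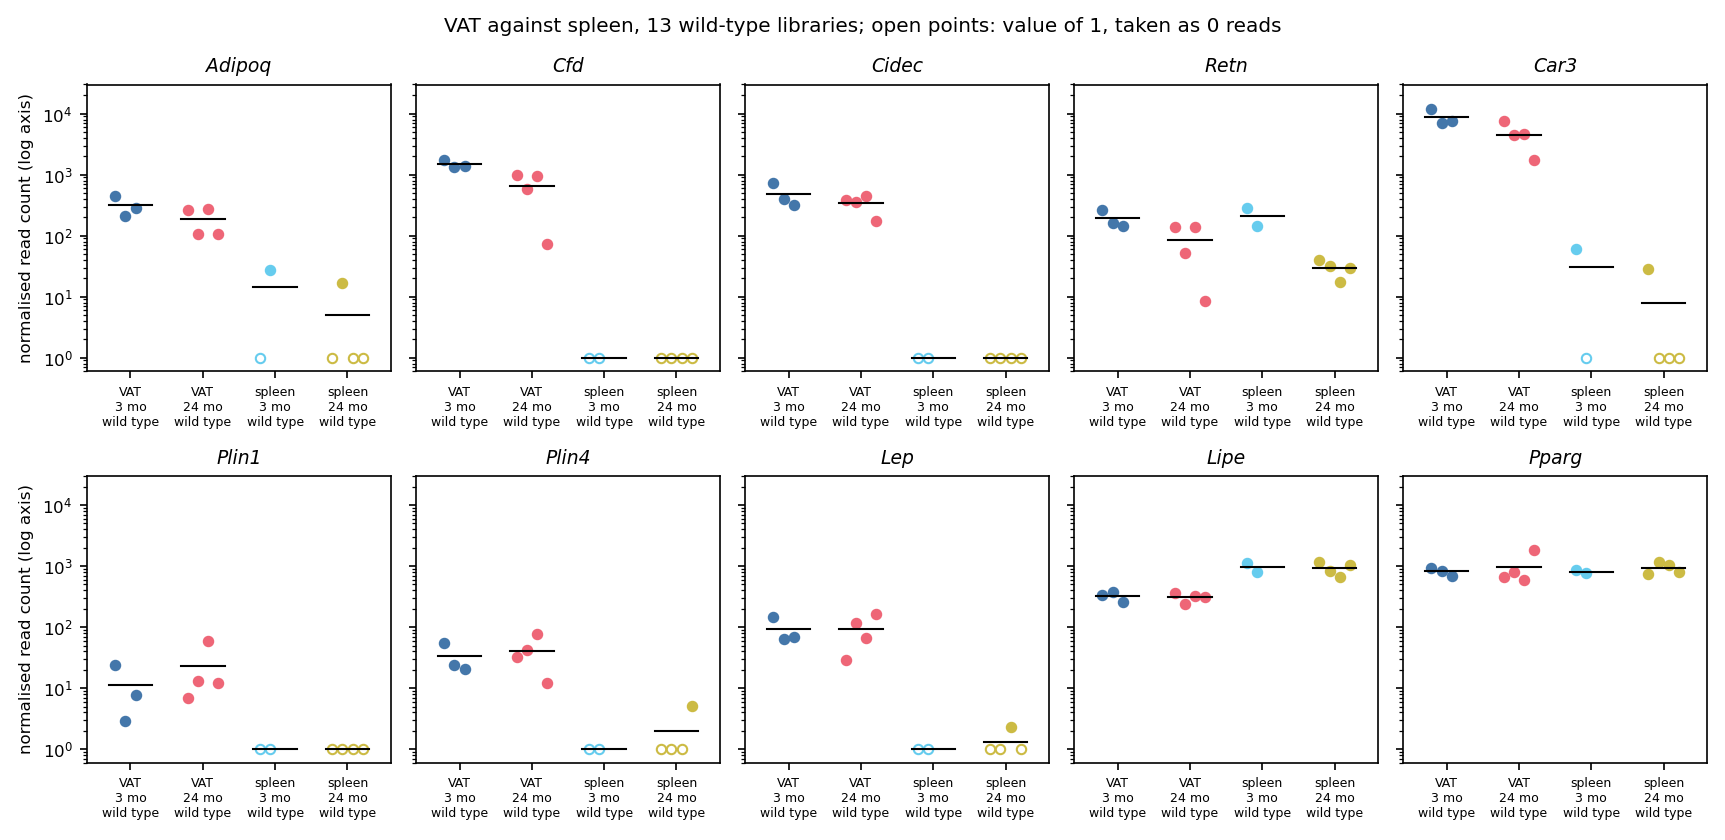
Normalised read count of the 10 genes in the 13 wild-type libraries (log axis) by tissue and age; each point is 1 library, the line is the group mean, and open points mark a value of 1. Cfd, Cidec and Plin1 stand at 1 in all 6 spleen libraries, whereas Retn, Lipe and Pparg have reads in every one.

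Retn, Lipe and Pparg had reads in every spleen library. Retn encodes resistin, a hormone made by fat cells in mice. In VAT it was at 268, 159.9 and 146 at 3 months and 141, 51.0, 137 and 8.55 at 24 months, and in spleen at 283 and 145 at 3 months and 39.4, 31.9, 17.1 and 29.7 at 24 months. The tissues overlapped at both ages, with log2 differences of -0.13 (95% interval -2.12 to 1.85, adjusted p = 0.925, limma) and 0.93 (-0.61 to 2.47, adjusted p = 0.305). At 24 months the difference passed in 2 of 15 alternative analyses. These were DESeq2 (1.52, adjusted p = 0.0499) and limma without wild-type VAT replicate 4 (1.78, adjusted p = 0.0125).

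Retnla and Retnlg, relatives of Retn, were looked at after their values were seen. Retnlg was far more abundant than Retn in VAT and in spleen, whereas Retnla was so throughout only in VAT. In the spleen table, Retnla was at 33.6 and 88.5 at 3 months, against 301 and 158 for Retn. In wild-type spleen at 24 months, Retnla was at 58.7, 387, 4.23 and 1, against 42.8, 34.8, 18.6 and 32.4 for Retn. Retnla was at 54470.3 to 509040.0 in the VAT table and at 1 to 387 in the spleen table. Retnlg, a gene of neutrophils, was at 159.6 to 7479 in the VAT table. In the spleen table it was at 57052 and 53843 at 3 months and 33152, 25997, 21650.3 and 22651 in wild type at 24 months. Whether reads of these relatives were counted to Retn was not tested.

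Lipe encodes hormone-sensitive lipase, which hydrolyses stored lipid in adipocytes and other cells, and it was lower in VAT than in spleen. It was at 341, 373 and 257 in VAT and 1108 and 805 in spleen at 3 months, and at 369, 241, 322 and 309.6 in VAT and 1181, 825, 674 and 1055 in spleen at 24 months. The groups did not overlap, and the spleen mean was 2.96 times the VAT mean at 3 months and 3.01 times at 24 months (log2 difference -1.56, SE 0.30, adjusted p = 7.19e-04, and -1.57, SE 0.24, adjusted p = 4.89e-05, limma). Of all genes, 18.7% and 22.5% were called lower in VAT at these ages.

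Pparg was at 931, 844 and 689.6 in VAT and 857 and 764 in spleen at 3 months. At 24 months it was at 665, 801, 593 and 1815 in VAT and 736, 1153, 1062 and 794 in spleen. The tissues overlapped at both ages, and the log2 difference was 0.01 (95% interval -0.78 to 0.80, limma) at 3 months and -0.08 (-0.69 to 0.54) at 24 months.

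The adipocyte genes took a small part of the VAT RNA, from 0.00649% to 0.0424% of the recovered reads of a library for all 8 together. Car3 alone held 68.8% to 80.0% of their summed normalised count.

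Levels of different genes were compared as normalised counts per kilobase of merged exons, in VAT at 3 months (mean ± SD, n = 3). Car3 led with 2938 ± 832, at percentile 95.4 of the 12578 genes with a length, before Cfd with 1549 ± 214 at percentile 91.8. Pparg (267 ± 37.6), Cidec (250.3 ± 115), Adipoq (217 ± 79.8) and Retn (116 ± 39.4) followed. The lower end held Lipe (52.7 ± 9.49), Lep (26.6 ± 12.9), Plin4 (5.55 ± 3.18) and Plin1 (2.35 ± 2.22), with Plin1 at percentile 2.23. The ranges of Pparg (226 to 299.9), Cidec (163 to 381) and Adipoq (148 to 304) overlapped, so their order was not resolved. The range of Retn (89.6 to 161) overlapped with that of Adipoq, and those of Plin4 (3.44 to 9.20) and Plin1 (0.596 to 4.84) also overlapped.

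The members did not keep 1 proportion. Per kilobase and relative to Adipoq, Car3 ranged from 7.61 to 20.2 over the 11 VAT libraries and Cidec from 0.818 to 2.60. Cfd ranged more widely, from 1.02 to 14.9, as did Retn, from 0.0690 to 1.04, and Plin1, from 0.00403 to 0.101.

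Age was compared in wild-type VAT, 24 against 3 months, in the VAT table. Cfd, Retn, Car3, Adipoq and Cidec had lower means at 24 months, at 42.5%, 43.0%, 50.3%, 58.4% and 68.8% of the 3-month mean. None of the 10 members passed the test over all genes in limma, where 9.36% of 13090 genes did, 4.95% of all being lower. At an unadjusted p under 0.05 there were 3 of 10 members (Car3, Cfd and Retn), all lower, against 25.4% of all genes in either direction and 13.1% lower. edgeR's quasi-likelihood test called 0 of 10 and DESeq2 called 1, Car3. The median log2 difference of the 8 adipocyte genes was -0.69, against 0.01 for all genes.

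Cfd was at 1651, 1277 and 1356 at 3 months and 940.5, 529, 885 and 69.9 at 24 months. The groups did not overlap, and the fourth old library lay far below the others. The log2 difference was -1.75 (SE 0.64, adjusted p = 0.0999, limma), and without that library it was -0.90 with an adjusted p of 0.0327, past the threshold. Of 15 alternative analyses, only this 1 passed.

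Retn was at 255, 153 and 142 at 3 months and 132, 47.3, 127 and 8.07 at 24 months. These groups did not overlap either, and the same old library was lowest (log2 difference -1.76, SE 0.76, adjusted p = 0.162, limma). Without that library it was -0.92 (adjusted p = 0.292, limma). Groups that did not overlap, with every old library below every young one, were found for 2 of 10 members and for 12.3% of all genes.

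Car3 was at 11132, 6672 and 7448 at 3 months and 6982, 4075, 4267 and 1614 at 24 months. The highest old library lay above the lowest young one, and the log2 difference was -1.13 (SE 0.35, adjusted p = 0.0583, limma). It passed in 2 of 15 alternative analyses, DESeq2 (-0.99, adjusted p = 0.0226) and limma without old replicate 1 (-1.43, adjusted p = 0.0156). Without old replicate 4 it was -0.73 (adjusted p = 0.0627, limma), not past the threshold.

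Adipoq was at 420.3, 204 and 276 at 3 months and 246, 97.3, 256 and 102 at 24 months, with overlap (log2 difference -0.86, SE 0.44, adjusted p = 0.241, limma). Cidec was at 707, 384 and 303 at 3 months and 365, 334, 418 and 162 at 24 months, also with overlap (-0.53, SE 0.36, adjusted p = 0.379, limma). For both genes the first young library was the highest of all 11 VAT libraries, and without it the differences were -0.58 and -0.18.

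**Figure D2:**
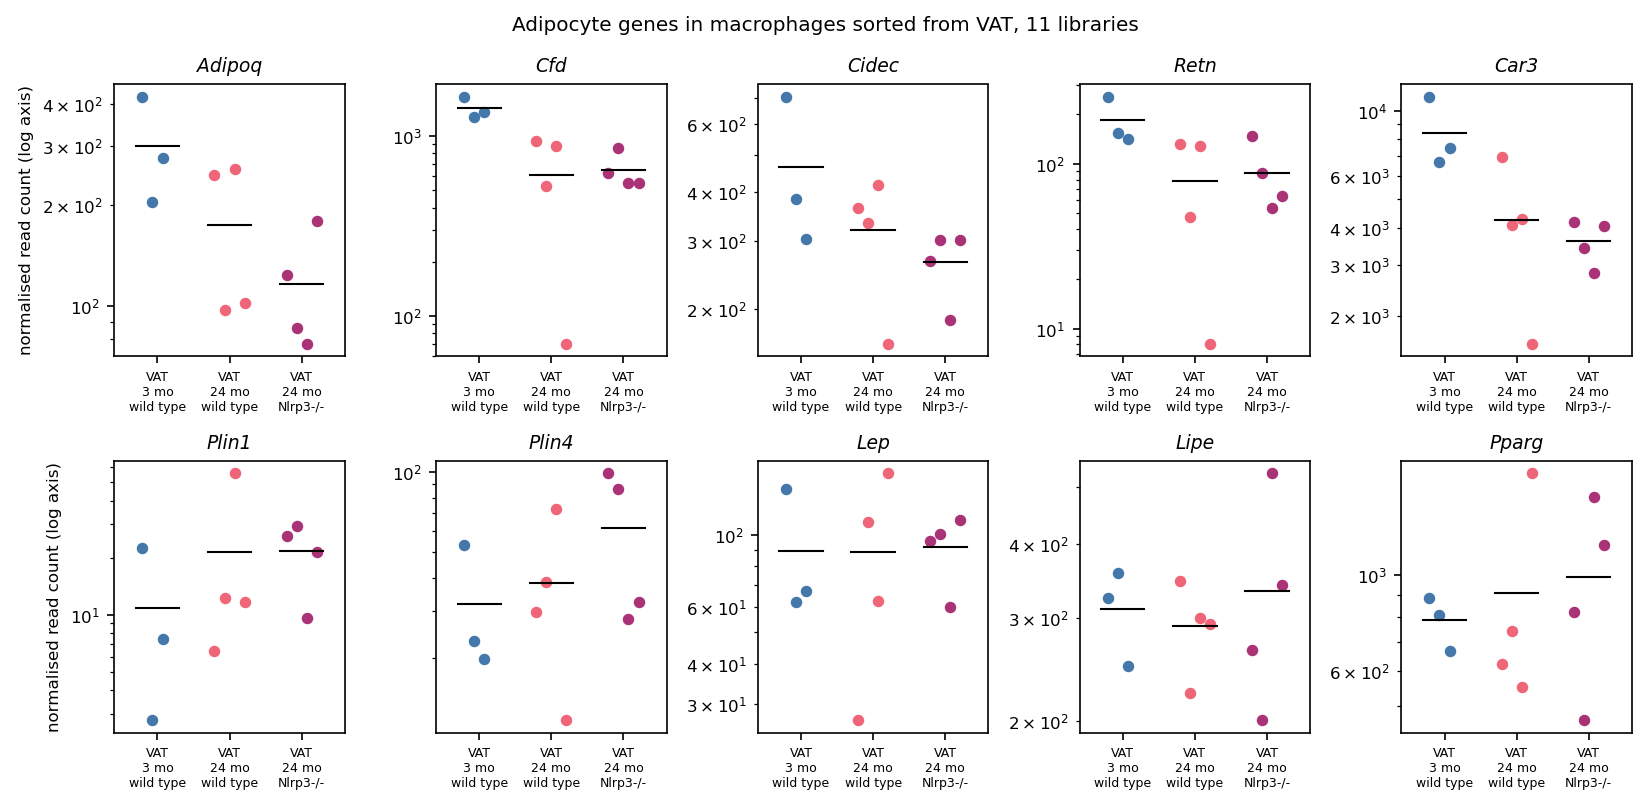
Normalised read count of the 10 genes in the 11 VAT libraries (log axis) by age and genotype; each point is 1 library and the line is the group mean. Wild-type libraries of 3 and 24 months do not overlap for Cfd and Retn, and the lowest old wild-type points are 69.9 for Cfd and 8.07 for Retn.

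Lep was at 139, 61.9 and 67.0 at 3 months and 26.7, 109.6, 62.7 and 155 at 24 months, a log2 difference of -0.18 (95% interval -1.37 to 1.01, limma). Plin1 was at 22.5, 2.77 and 7.45 at 3 months and 6.40, 12.3, 55.8 and 11.7 at 24 months, a difference of 0.85 (-1.11 to 2.80). Plin4 was at 53.2, 23.1 and 19.9 at 3 months and 29.9, 38.7, 72.5 and 11.7 at 24 months, a difference of 0.12 (-1.38 to 1.62). For these 3 the groups overlapped, and the intervals span both a fall and a rise of more than 1 log2 unit, so changes of that size were not resolved.

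Lipe was at 324, 357 and 248 at 3 months and 346, 223, 299.7 and 292 at 24 months, a log2 difference of -0.10 (95% interval -0.76 to 0.57, limma). Pparg was at 886, 809 and 667 at 3 months and 624, 742, 552 and 1713 at 24 months, a difference of 0.06 (-0.78 to 0.90). The fourth old wild-type library held the most Pparg and the most Lep (155) of the 11 VAT libraries, and the least Cfd, Cidec, Plin4, Retn and Car3. Its summed level of 5 neutrophil markers was 572 against 4031 to 7269.5 in the other old wild-type libraries, and that of 8 B cell markers 9508 against 1827 to 2452. The part of these cells in its values was not tested.

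Nlrp3-/- and wild-type VAT were compared at 24 months. None of the 10 members was called by limma, edgeR or DESeq2, and limma called 0.00764% of genes, which is 1 gene, Nlrp3. In limma 0 of 10 members had an unadjusted p under 0.05, against 6.09% of all genes. In Nlrp3-/- VAT, Cfd was at 621, 860.0, 551 and 551, Car3 at 4191, 3413, 2813 and 4042 and Adipoq at 124, 86.2, 77.3 and 180.0. All 3 overlapped with wild type, and the log2 differences were 0.59 (95% interval -0.67 to 1.86), -0.07 (-0.77 to 0.63) and -0.51 (-1.39 to 0.36). Without wild-type replicate 4 the difference of Cfd was -0.26.

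The remaining adipocyte genes in Nlrp3-/- VAT were Cidec at 187 to 302, Retn at 53.6 to 148, Lep at 59.7 to 111, Plin1 at 9.66 to 29.4 and Plin4 at 28.1 to 99.0. Lipe was at 201 to 527 and Pparg at 463 to 1508. Their log2 differences from wild type ran from -0.22 for Cidec to 0.72 for Plin4, and the interval of Plin1 was the widest, -1.44 to 2.18. No member's groups were apart, against 3.48% of all genes.

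**Figure D3:**
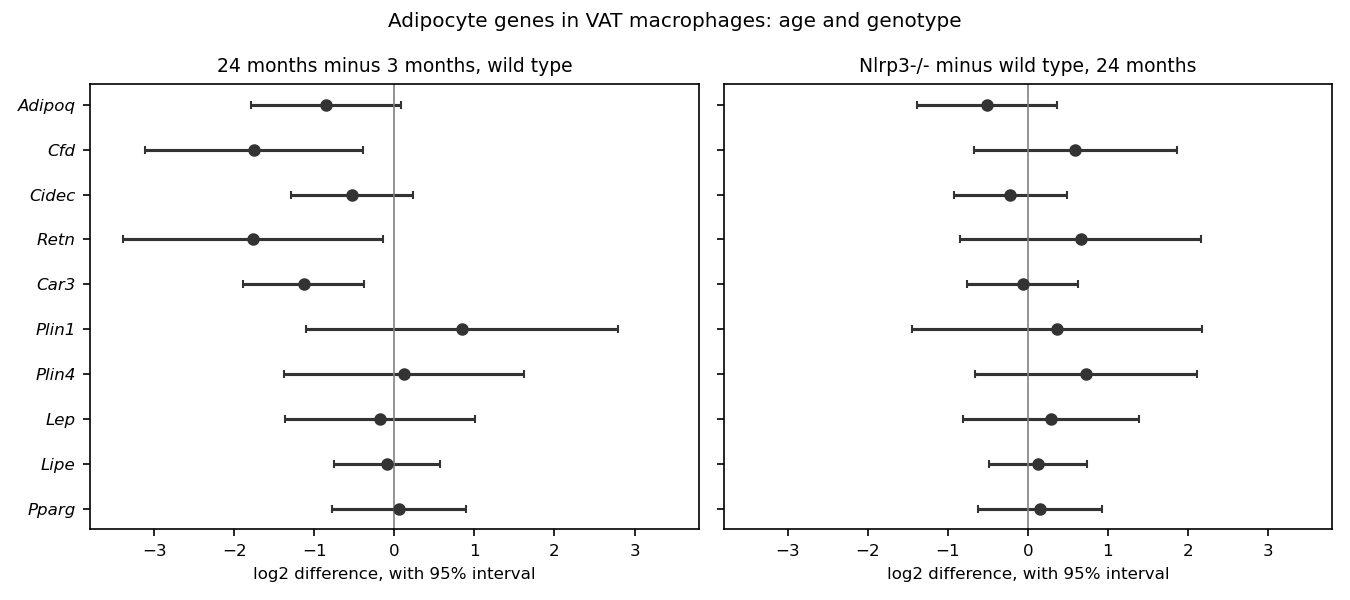
Log2 difference of each gene in VAT with its 95% interval from limma, for 24 against 3 months in wild type and for Nlrp3-/- against wild type at 24 months. For age the unadjusted intervals of Cfd (-1.75), Retn (-1.76) and Car3 (-1.13) lie below 0, and for genotype every interval spans 0.

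In spleen, Retn had a lower mean level at 24 months, a difference that limma did not call. In the spleen table it was at 301 and 158 at 3 months and 42.8, 34.8, 18.6 and 32.4 in wild type at 24 months. The groups did not overlap, which held with old below young for 15.1% of all genes. The log2 difference was -2.78 (SE 0.83, adjusted p = 0.0654, limma), not past the threshold, where 4.98% of 13053 genes were called. It passed in 2 of 14 alternative analyses, limma with a pseudocount of 10 (-2.47, adjusted p = 0.0395) and DESeq2 (-2.84, adjusted p = 0.00956). It did not pass with edgeR. Of 8 neutrophil markers, 5 fell in the same comparison, against 404 of all 13053 genes. Retnlg fell by 1.12 on the log2 scale (adjusted p = 0.0296, limma). The sum of these 8 markers was 647081 to 832248 at 3 months against 177431 to 357966 at 24 months. Their part in the values of Retn was not tested.

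Lipe and Pparg differed with age in spleen by -0.03 (95% interval -0.73 to 0.66) and 0.20 (-0.37 to 0.77) on the log2 scale in limma, and neither passed. Car3 was at 63.9 and 1 at 3 months and 30.9, 1, 1 and 1 at 24 months. In Nlrp3-/- spleen, Retn was at 66.1, 22.9 and 23.3, Car3 at 31.7, 6.02 and 1, Lipe at 1296, 549 and 767 and Pparg at 1006, 1319 and 787. None of the 4 was called against wild type in limma, where 0.00766% of genes were.

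Across the 11 VAT libraries, on the log2 scale, Adipoq, Cfd, Cidec, Retn and Car3 varied together, with Pearson correlations of 0.590 to 0.954 over their 10 pairs (median 0.803). These 5 were grouped after the correlations were seen. Their correlations with Plin1, Plin4 and Lep were -0.419 to 0.546, and those of all 8 adipocyte genes with Pparg were -0.655 to 0.365. Points share a library and its depth, and the groups are part of the spread, so these values are a description. The first young library was the highest for 5 of 8 adipocyte genes. The fourth old wild-type library was the lowest for 5 of 8 and the highest for 1, Lep.

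**Figure D4:**
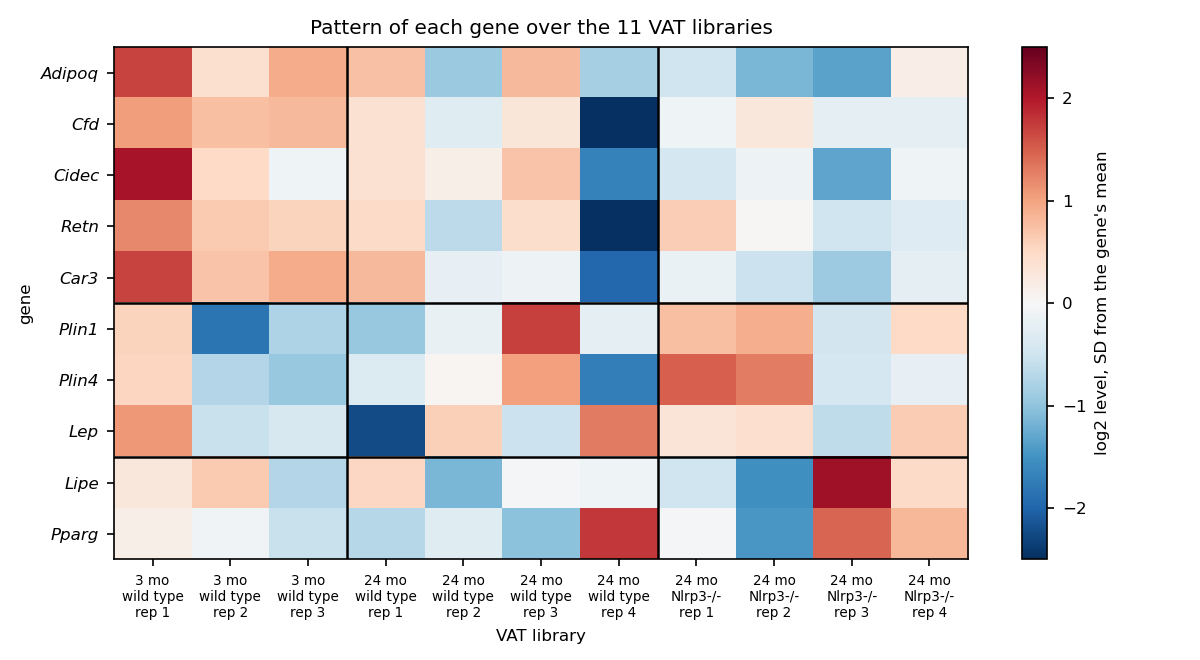
Log2 level of each of the 10 genes in each of the 11 VAT libraries, scaled to the gene's mean and SD. Adipoq, Cfd, Cidec, Retn and Car3 share their highest library, 3-month replicate 1, and 24-month wild-type replicate 4, in which Pparg is highest at 1713 normalised counts, is low for all 5.

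Among the genes most like the mean scaled log2 level of the 8 adipocyte genes over these 11 libraries, of 13080 genes ranked, were Ylpm1 (r = 0.934), Man1a2 (r = 0.918), Cdc42bpa (r = 0.913), Golga4 (r = 0.901), Lfng (r = 0.899), Tanc2 (r = 0.896), Usp24 (r = 0.884), Cyp2e1 (r = 0.878) and Osbp (r = 0.874). The median r of all ranked genes was -0.02, and 84 genes were over 0.8. Cyp2e1, a cytochrome of lipid and xenobiotic oxidation, had the largest ratio of highest to lowest level of these 9, 94.1 (13.4 to 1266 normalised counts). Its means were 714 at 3 months, 197 in old wild type and 176 in old Nlrp3-/- VAT.

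Further adipocyte genes came from a list of 30, of which 22 were tested between tissues. At 24 months 12 were higher in VAT and 4 lower (median log2 difference 1.89, against 0.02 for all genes). Of the 23 in the wild-type table, 8 were at 1 in all 24-month spleen libraries. Genes without spleen reads could pass the filter on low values only through VAT, so these counts are a description. Of all genes, 26.6% were higher and 22.5% lower. The genes named next had the largest called differences and are all higher in VAT, so the 4 lower ones are not shown. Agt, which encodes angiotensinogen, was at 321 ± 69.2 (SD, n = 3) in VAT at 3 months and 708 ± 291 (SD, n = 4) at 24 months. Sncg, which encodes γ-synuclein, was at 369 ± 61.8 (SD, n = 3) and 239 ± 138 (SD, n = 4), and Aoc3, an amine oxidase, at 96.3 ± 54.5 (SD, n = 3) and 162 ± 52.0 (SD, n = 4). These 3 genes were at 1 in all 6 spleen libraries. Thrsp, a regulator of lipid synthesis, was at 44.6 to 806 in VAT and 1 to 8.49 in spleen at 24 months. With age in VAT, 0 of 23 passed in limma, 5 had an unadjusted p under 0.05 (all genes 25.4%), edgeR called 0 and DESeq2 3.

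Of 20 lipid droplet and fatty acid genes, a list of genes used by adipocytes or macrophages that holds the members Cidec and Lipe, 11 were higher in VAT at 24 months and 4 lower (median 1.09). Of all genes, 26.6% were higher and 22.5% lower. Fabp4, a fatty acid carrier, was at 10813 ± 6433 (SD, n = 4) in VAT and 216 ± 150.2 (SD, n = 4) in spleen at 24 months. Cd36, a fatty acid importer, was at 80886 ± 8094 (SD, n = 4) and 2222 ± 507 (SD, n = 4). Their log2 differences were 5.86 and 5.21 (adjusted p = 1.09e-07 and 3.00e-12, limma). With age in VAT, 0 of 20 passed in limma, 3 had an unadjusted p under 0.05 (all genes 25.4%), and edgeR and DESeq2 called 1 each. With age in spleen 3 of 19 fell, against 404 of all 13053 genes. These were Plin2 (-0.76), a droplet coat protein of many cells, Acsl1 (-1.23), which activates fatty acids, and G0s2 (-1.95), a lipase inhibitor.

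Of 18 partners of PPARγ and regulators of fat cell formation, 1 rose and 2 fell with age in VAT. Of all 13090 genes, 577 rose and 648 fell. Ppargc1a, a coactivator, was at 1 to 6.21 at 3 months and 18.9 to 34.3 at 24 months (2.70, SE 0.74, limma). It was called by limma but not by edgeR. It passed the filter on low values only through the older libraries, so its call is a description and no p-value is given. The corepressor Ncor1 changed by -0.89 (adjusted p = 0.0129) and Cebpb, a C/EBP factor of early fat cell formation, by -0.999 (adjusted p = 0.0307, limma). Between tissues at 24 months 5 of 18 were higher in VAT and 5 lower, shares close to those of all genes (26.6% and 22.5%). Ebf1 was at -3.19 on the log2 scale. Ebf2 was at 277 ± 109.9 (SD, n = 4) in VAT and at 1 in all 4 spleen libraries. Of 8 genes listed as receptors for adipokines and catecholamines, limma called only Tlr4 with age in VAT (1.17, SE 0.19, adjusted p = 0.00233). The call says nothing of the other receptors on this list, none of which was called. Cdh13, which binds adiponectin, was at 199.7 ± 119 (SD, n = 4) in VAT and 1 to 1.83 in spleen at 24 months.

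Markers of other cells moved with age in the same VAT libraries. Of all 13090 genes, limma called 577 higher and 648 (4.95%) lower in this comparison. The sum of the 8 adipocyte genes, mostly Car3 (68.8% to 80.0%), was 8777 to 14379 at 3 months, 2134 to 8729 in old wild type and 3779.9 to 5571 in old Nlrp3-/- VAT. Of 14 preadipocyte and fibroblast markers 5 rose with age, Dcn by 1.30 and Pdgfra by 1.53 (adjusted p = 0.00237 and 0.00962, limma), and their sum was 34018 to 35540.4, 63332 to 90375 and 43959 to 88738 in those groups. Of 11 endothelial markers 5 fell, and their sum was 2821 to 4609, 979.8 to 1823 and 714 to 1289. Of 8 B cell markers 5 rose, and their sum was 632 to 872, 1827 to 9508 and 3113 to 9733. The part of these cells in the adipocyte values was not tested.

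Of 12 macrophage markers 5 rose and 1 fell with age in VAT, against 577 and 648 of all 13090 genes. Mesothelial, T cell and neutrophil markers gave 0 calls of 7, 7 and 5 in limma, with 1, 1 and 2 at an unadjusted p under 0.05 (all genes 25.4%), 0, 0 and 0 by edgeR and 0, 1 and 0 by DESeq2. Between Nlrp3-/- and wild-type VAT, no gene of these lists was called by limma or edgeR, and DESeq2 called 1, a neutrophil marker.

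**Figure D5:**
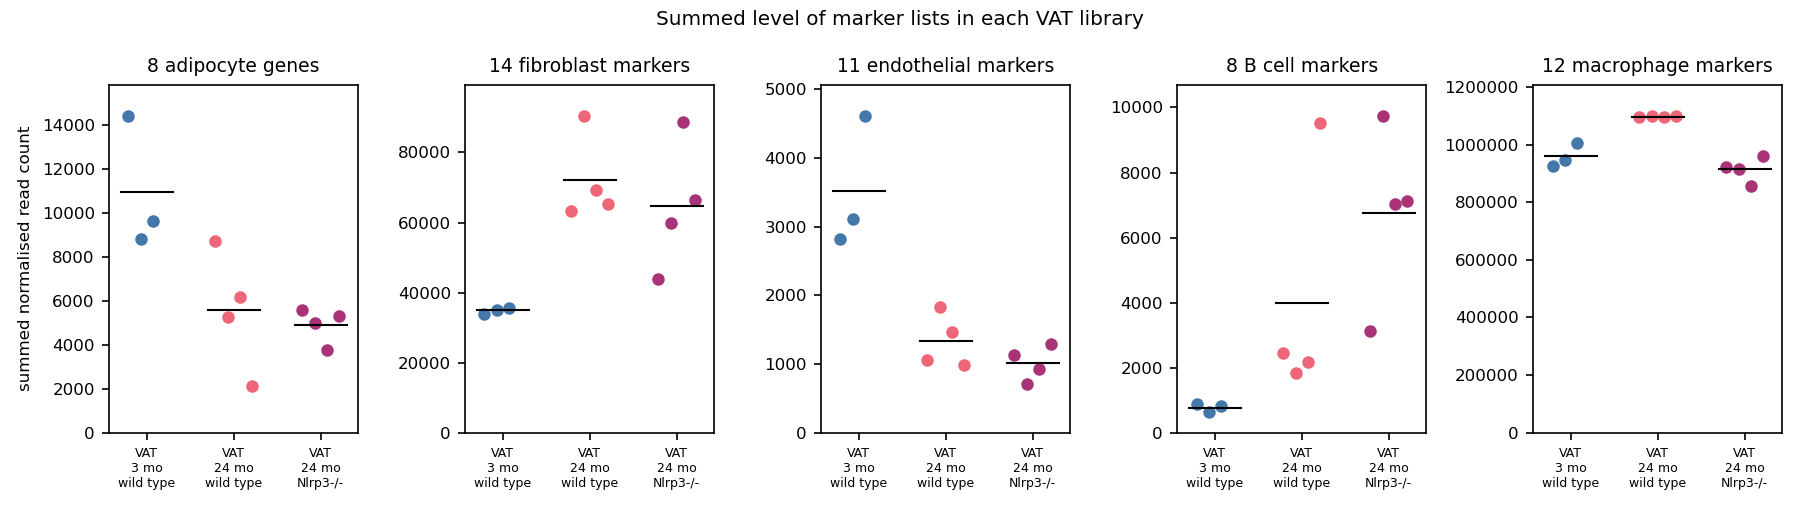
Summed normalised read count of each marker list in each VAT library by age and genotype; each point is 1 library and the line is the group mean. The adipocyte sum, of which Car3 alone makes 68.8% to 80.0%, is 8777 to 14379 at 3 months and at most 8729 in the older groups. The fibroblast sum is 34018 to 35540.4 at 3 months and at least 43959 in the older groups.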

How the data were processed

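Poly-A RNA of sorted F4/80+ CD11b+ cells was sequenced from 20 libraries. The submitters' processing notes name build mm10 and the tools DESeq2, Partek, TopHat and CASAVA (1.8.2), and other versions are not given in the sources used here. The deposited signal values are gene read counts that the authors divided by a size factor per library, with entries below 1 set to 1, as the values themselves show. Whole reads were recovered from them in 33 columns of 3 tables, with at least 99.8% of checked values within 0.05 of a whole read. The rule for the step size was amended after a first version had set it too small in 2 libraries.

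Tests used limma 3.58.1 (R 4.3.3) with a mean-variance trend on log2(value + 1), over genes with a mean of at least 10, with Benjamini-Hochberg adjustment over all genes and a threshold of 0.05. Alternatives were edgeR 4.0.16 (TMM, quasi-likelihood) and DESeq2 1.42.0 on recovered reads, a pseudocount of 10, no filter, quantile normalisation, a replicate block, only the groups compared, the wild-type table and leaving out each library. The fit was tested on simulated data. Fold changes of low genes are understated by the pseudocount. Exon lengths and gene models come from GENCODE M21 and promoters from RefSeq.

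The members and lists were chosen with earlier results of these data known. Named genes are the 10 members, Nlrp3, the 10 genes most like the adipocyte genes over the VAT libraries (1 of them is not reported here), and up to 4 genes per list with the largest called differences. Adgre1, Itgam, Retnla, Retnlg, Plin2, Acsl1, G0s2, Ncor1, Cebpb and Pdgfra were named outside this rule, after their values were seen.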

Additional observations from a re-analysis of the deposited data

Results flagged for a closer look

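In 6 of 30 checks of a member in a group of 4 libraries, 1 library stood apart from the rest by Dixon's gap ratio. Chance flags about 1 in 20 groups whose values vary freely. That rate does not hold for the 4 checks in which every library but 1 was at 1, where the ratio is 1 by construction, or for the 3 in which all were at 1. In VAT at 24 months, wild-type replicate 3 held 55.8 normalised counts of Plin1 and wild-type replicate 4 held 1713 of Pparg, which are 2 among the other 23 checks. In 24-month wild-type spleen, 1 library each held reads while the other three were at 1: Car3 at 30.9 in replicate 1, Adipoq at 16.9 in replicate 2, Plin4 at 5.09 in replicate 4 and Lep at 2.33 in replicate 3.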

How the results depend on the processing

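Over 48 member results and 677 alternative values, 624 kept their direction and side of the threshold, 43 changed direction, 8 came past the threshold and 2 lost it. The calls that changed are given with their genes above, and the lowest adjusted p, as reported, of a result that changed direction was 0.840 (limma). The causes were not tested. DESeq2 on recovered reads called 1 member lower with age in VAT and 1 with age in spleen, where a pseudocount of 10 also called 1. DESeq2 called 30 genes for genotype in VAT, 1246 for age in spleen, 16 for genotype in spleen and 798 for the interaction of tissue and age, against 1, 650, 1 and 375 in limma. The wild-type table gave 740 genes for age in VAT against 1225.

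Same-numbered libraries of the VAT, spleen and wild-type tables had correlations of -0.15 to 0.24, -0.02 to 0.05 and -0.05 to 0.08. In VAT, 2 of 10 such pairs were over 0.1. Differently numbered libraries were not compared, so these values cannot settle whether replicate numbers pair the libraries. With the replicate block, genotype gave 2 genes in VAT and 5 in spleen, Pparg differed by -0.18 with age in VAT and by -0.053 with genotype in spleen, and Lipe by 0.011 with age in spleen. With edgeR, Lipe differed by 0.0083 with age in spleen and Pparg by 0.011 and -0.0026 between tissues at 24 and 3 months. With DESeq2 the 24-month value of Pparg was 0.053.

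Leaving out 1 library at a time, age in VAT gave 360 (without young replicate 3) to 1254 genes and 0 to 1 members lower, genotype in VAT 1 to 3 genes, age in spleen 69 (without young replicate 1) to 679, and the interaction 123 to 655. Log2 differences with age in VAT ran from -0.27 to 0.58 for Plin4, -0.54 to 0.29 for Lep, -0.25 to 0.025 for Lipe and -0.30 to 0.24 for Pparg. With genotype in VAT they ran from -0.26 to 0.98 for Cfd, -0.012 to 0.97 for Plin1, -0.19 to 0.64 for Lep, -0.18 to 1.11 for Retn, -0.47 to 0.23 for Car3, -0.13 to 0.34 for Lipe and -0.090 to 0.51 for Pparg. In spleen they ran from -0.25 to 0.18 for Lipe with age, and with genotype from -0.40 to 0.34 for Retn, -0.093 to 1.95 for Car3, -0.61 to 0.0051 for Lipe and -0.17 to 0.20 for Pparg. Between tissues they ran from -0.43 to 0.10 for Pparg at 24 months, and at 3 months from -0.61 to 0.35 for Retn and -0.086 to 0.13 for Pparg. Leaving out 1 young spleen library leaves a lone one, assumed to vary like the other groups. Plin1 and the spleen reads of Adipoq, Car3, Lep and Plin4 rest on few reads.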
